A study of Mus musculus with 6 samples.

Results

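The 39 protein-coding Hox genes of the mouse were followed through 6 poly-A RNA libraries of M1, a mouse neuroblastoma cell line. They were taken as every protein-coding gene whose GENCODE symbol is Hoxa, Hoxb, Hoxc or Hoxd followed by a number, and all 39 were among the 43629 mouse gene IDs of the deposited count table. All cells carried a doxycycline-induced short hairpin RNA and received 4 to 6 µg/ml doxycycline for 6 days. In 3 libraries the hairpin was non-targeting (shNT, genotype given as WT), and in the other 3 it was directed at Igf2bp1 (shIGF2BP1, genotype given as IGF2BP1 knockdown). The labels name 1 hairpin against Igf2bp1 and do not say whether the replicates were separate cultures, so p-values here reflect sample-to-sample spread only, and that spread may be technical.

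Hox genes encode homeodomain transcription factors that give cells along the head-to-tail axis their positional identity. They lie in 4 clusters, and genes at one end of a cluster (paralog group 1) are active furthest forward in the embryo, while those at the other end (group 13) are active towards the tail. Genes in the same group of different clusters are paralogs that arose by duplication of an ancestral cluster. The combination of active genes, the Hox code, is often kept by cells in culture, and Polycomb and trithorax proteins are known to hold the clusters silent or active. Genes in the middle of the clusters are known for their activity in the trunk, where sympathetic ganglia form.

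The targeted transcript was not measured at a lower level with its hairpin. Igf2bp1 had counts of 37, 175 and 201 under shNT and 67, 35 and 311 under the shIGF2BP1 label. The groups overlapped (log2 fold change 0.25, SE 0.79, adjusted p = 0.966 by edgeR). Every direction below is therefore a difference between labels. The gene lies on chromosome 11 (95957163 to 96005940, GRCm38), 188375 bases from the nearest edge of the Hoxb cluster. Library totals ran from 25119655 to 35373076 counts, and a count of 3, the most that a count of 0 allows, corresponded to 0.0851 to 0.114 CPM (counts scaled to the size of the library, with TMM factors). These limits, like the intervals on single counts below, cover counting error only.

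The label of the line was only partly met by its markers. Of 15 neuroblastoma and sympathetic markers, 5 (Hand2, Gata2, Gata3, Isl1 and Mycn) were at 1 CPM or more in every library, and 6 had 0 counts in all libraries, including Th and Dbh, enzymes of noradrenaline synthesis that define sympathetic neurons. Ddc, another enzyme of that synthesis, had 0.149 ± 0.108 CPM under shNT and 1.12 ± 0.508 CPM under the shIGF2BP1 label, and its groups did not overlap. Its adjusted p by edgeR was 0.431, and 0.0425 with no filter on low counts. By DESeq2 it was 0.0692, and by limma-voom 0.53. Of 11 fibroblast and mesenchymal markers 8 were at 1 CPM or more in every library, with a summed level of 880.5 to 1193 CPM under shNT and 725 to 1230 CPM under the shIGF2BP1 label. Prrx1, a factor of limb and facial mesenchyme with the smallest p of that list, had 142 ± 10.4 and 62.3 ± 11.6 CPM (SD, n = 3 each, adjusted p = 0.13 by edgeR). Its adjusted p was 0.000443 by DESeq2, 0.000645 by edgeR with no filter on low counts and 0.119 by limma-voom. Schwann cell and neural crest markers had 3 of 9 at that level (50.5 to 57.2 and 40.3 to 46.5 summed CPM), with Sox10 at 0 and Erbb3 at 9.82 ± 0.337 and 6.89 ± 1.67 CPM (adjusted p = 0.781 by edgeR). Leukocyte markers had 1 of 9 (8.29 to 15.6 and 4.63 to 6.38 summed CPM), with Cd3e and Adgre1 at 0. Most of that sum was Cd68, a lysosomal protein abundant in macrophages, at 11.9 ± 3.6 and 4.12 ± 1.28 CPM. The Cd68 groups did not overlap, with an adjusted p by edgeR of 0.403, and of 0.0187 with no filter on low counts. By DESeq2 it was 0.00811, and by limma-voom 0.506. Endothelial markers had 1 of 6 (37.4 to 54.5 and 31.5 to 73.8 summed CPM), led by Pecam1, with Emcn at 0. Kdr had 6.03 ± 3.81 and 1.55 ± 0.846 CPM, and the groups overlapped (adjusted p = 0.524 by edgeR, and 0.015 with no filter on low counts). For Kdr the adjusted p was 0.0538 by DESeq2 and 0.697 by limma-voom. Kidney and adrenal cortex markers had 0 of 8 (0.27 to 1.03 and 1.06 to 2.24 summed CPM), with Six2 and Cyp11b1 at 0. Bulk RNA cannot tell fewer cells of a type from less RNA per cell, and the part of these markers in the results below was not tested.

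Hox genes share a homeobox, so reads could in principle be assigned to the wrong paralog. Hoxc4, Hoxc6, Hoxd8 and Hoxd9, to which most Hox reads were assigned, were separable at the 53-base read length. The longest exact run that Hoxc4 shared with any other Hox transcript was 20 bases (with Hoxc6), against 28 for Hoxc6 (with Hoxa3), 32 for Hoxd8 (with Hoxb8) and 40 for Hoxd9 (with Hoxb9). No 53-base window of their longest coding transcripts (0%) occurred in a transcript of any other gene. That was not so for Hoxd3, where 86.1% of windows also lay in other genes (Hoxd4, Gm28230 and Hoxd3os1), for Hoxb3 (68.6%, in the antisense gene Hoxb3os), for Hoxb2 (57.2%, Hoxb3os) and for Hoxd4 (42%, in the overlapping model Gm28230). The counts of these 4 genes are therefore uncertain, since the sources used here do not state the strand and overlap settings of the counting.

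Only 4 of the 39 Hox genes were on, defined as at least 1 CPM in each of the 6 libraries. They were Hoxc4 and Hoxc6 of the Hoxc cluster and Hoxd8 and Hoxd9 of the Hoxd cluster, 1 gene in each of paralog groups 4, 6, 8 and 9. Another 3 were at trace level (10 or more counts in at least 1 library without being on), namely Hoxa3, Hoxd4 and Hoxc5. The other 32 stayed under 10 counts in every library, and 17 of them had 0 counts in all 6. The same 4 genes were on under all 11 alternatives tried, which were 3 other thresholds, 2 other normalisations and leaving out each library. Leaving out a library or lowering the threshold to 0.5 CPM could only add genes, and no gene was added.

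**Figure D1:**
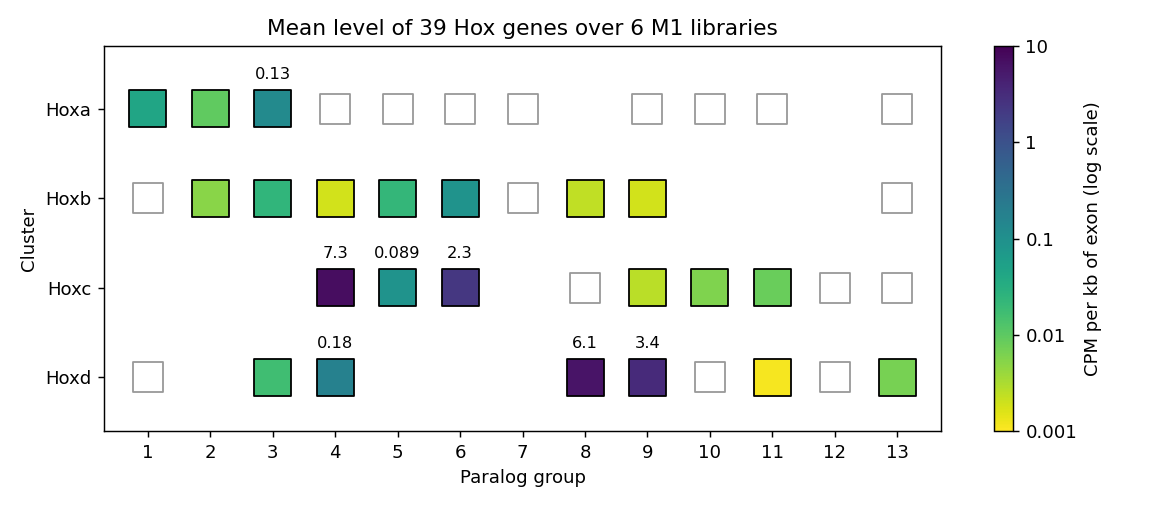
Each square is 1 of the 39 Hox genes, placed by paralog group (horizontal axis) and cluster (vertical axis) and coloured by its mean level over the 6 libraries in CPM per kilobase of exon (log colour scale). Small open squares had 0 counts in every library, and numbers give the level of the 7 genes that were on or at trace level, with Hoxc4 (7.3) and Hoxd8 (6.1) the highest.

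The Hoxc cluster (chromosome 15, 102921103 to 103036852) was active at its group 4 to 6 end. Hoxc4 (ENSMUSG00000075394, 103018934 to 103036852), known to be active furthest forward of this cluster's genes, had 21.6, 24.3 and 13.4 CPM in shNT replicates 1 to 3 and 16.1, 21.2 and 16.4 CPM under the shIGF2BP1 label. The ranges of the groups overlapped, and the log2 fold change was -0.14 ± 0.28 (SE, adjusted p = 0.943 by edgeR). Hoxc6 (ENSMUSG00000001661, 102998257 to 103011881), known in the thoracic region, had 9.17, 4.34 and 4.81 CPM under shNT and 4.12, 7.83 and 3.06 CPM under the shIGF2BP1 label. It was high in shNT replicate 1 and shIGF2BP1 replicate 2, the groups overlapped, and the log2 fold change was -0.28 ± 0.44 (adjusted p = 0.934 by edgeR).

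Hoxc5, the paralog group between these genes, was barely read. Its annotated model runs across Hoxc6 and into Hoxc10. It had 8, 7 and 11 counts under shNT and 5, 19 and 3 counts under the shIGF2BP1 label, too few for the test. Per kilobase of exon, Hoxc4 was 47.2 to 180 times Hoxc5 within a library. The annotated Hoxc5 exons share 5.37% of their bases with Hoxc10, and 0% of the 53-base windows of its longest coding transcript lay in another gene. Towards group 13 the cluster was silent: Hoxc8, whose gene model ends 4145 bases from that of Hoxc6, Hoxc12 and Hoxc13 had 0 counts in every library, and Hoxc9, Hoxc10 and Hoxc11 had 1 count at most in any library.

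The Hoxd cluster (chromosome 2, 74668310 to 74765142) was active in its middle. Hoxd8 (ENSMUSG00000027102, 74704615 to 74707933) had 25.7, 18.2 and 15.3 CPM under shNT and 11.6, 13.6 and 15.4 CPM under the shIGF2BP1 label. The lowest shNT library and the highest library labelled shIGF2BP1 nearly coincided, so the groups overlapped by 1 library on each side. Its log2 fold change of -0.54 ± 0.27 (SE, 95% interval -1.14 to 0.05) had the smallest p of the Hox genes (adjusted p = 0.743 by edgeR), and stayed negative, from -0.70 to -0.31, without each library in turn. Hoxd9 (ENSMUSG00000043342, 74697727 to 74700208), a gene known in the trunk and proximal limb, had 9.13, 6.05 and 6.2 CPM under shNT and 7.29, 8.51 and 5.83 CPM under the shIGF2BP1 label. It was the steadiest of the 4, with a highest-to-lowest ratio of 1.57 over all 6 libraries and a log2 fold change of 0.02 ± 0.32 (adjusted p = 0.994 by edgeR).

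On the group 13 side of this active stretch, Hoxd10 lies 2621 bases from Hoxd9 and had 0 counts in every library, as did Hoxd12, while Hoxd11 had 1 count over all 6 and Hoxd13 had 3 counts, all in shNT. On the other side Hoxd1 had 0 counts. Hoxd4, the group 4 paralog of Hoxc4, had 13, 11 and 9 counts under shNT and 22, 42 and 5 counts under the shIGF2BP1 label. It thus held both the highest and the lowest value in the libraries labelled shIGF2BP1, and its log2 fold change of 1.11 ± 0.69 (SE, adjusted p = 0.794 by edgeR) had the widest interval of the Hox genes tested, from -0.42 to 2.63. The ratio of pooled normalised counts was 2.28 (95% interval 1.48 to 3.56), and 1.48 (0.854 to 2.53) without shIGF2BP1 replicate 2. These 2 intervals cover counting error only and leave out the spread between libraries, which the edgeR interval includes. Hoxd3, which shares 62.8% of its exon bases with overlapping genes, had 3 counts under shNT and 11 in the libraries labelled shIGF2BP1, 8 of them in replicate 2.

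RefSeq promoters of Hoxd8, Hoxd9 and Hoxd10 (250 bases before to 50 after the start, GRCm38.p6, plus strand) are printed because they flank the boundary between the active and the silent Hoxd genes. Capitals mark CpG dinucleotides. The windows are chr2:74704365-74704664 for Hoxd8, chr2:74697513-74697812 for Hoxd9 and chr2:74691641-74691940 for Hoxd10.
Hoxd8: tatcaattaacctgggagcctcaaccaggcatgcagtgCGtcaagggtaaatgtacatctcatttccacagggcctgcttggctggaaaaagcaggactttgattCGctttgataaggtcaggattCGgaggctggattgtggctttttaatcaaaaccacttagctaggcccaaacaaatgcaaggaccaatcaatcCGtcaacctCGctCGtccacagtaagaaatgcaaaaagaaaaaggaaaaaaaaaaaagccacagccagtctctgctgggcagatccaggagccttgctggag
Hoxd9: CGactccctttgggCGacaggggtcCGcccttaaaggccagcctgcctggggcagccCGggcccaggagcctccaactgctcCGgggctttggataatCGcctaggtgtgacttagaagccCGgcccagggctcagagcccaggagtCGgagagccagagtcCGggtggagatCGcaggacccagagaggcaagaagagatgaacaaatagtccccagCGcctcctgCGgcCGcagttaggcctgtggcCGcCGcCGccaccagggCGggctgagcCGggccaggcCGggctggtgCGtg
Hoxd10: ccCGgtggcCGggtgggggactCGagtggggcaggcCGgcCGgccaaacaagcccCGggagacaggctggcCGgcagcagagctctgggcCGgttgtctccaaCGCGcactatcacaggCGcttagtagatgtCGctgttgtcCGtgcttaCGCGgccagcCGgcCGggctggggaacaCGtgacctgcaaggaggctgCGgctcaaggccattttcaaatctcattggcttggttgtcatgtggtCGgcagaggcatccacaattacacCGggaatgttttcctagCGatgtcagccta
The Hoxd8 window held 6 CpG at a GC content of 46.7%, the Hoxd9 window 20 at 68.3% and the silent Hoxd10 window 22 at 62.7%. The observed-to-expected CpG ratio was 0.367, 0.573 and 0.754, against a median of 0.384 over all 32851 RefSeq promoters and 0.626 over the 24 Hox promoters in the table. Over the 19 promoters of silent Hox genes this ratio ranged from 0.257 to 1.02, which covers the 3 promoters of genes that were on (Hoxc4, Hoxd8 and Hoxd9, 0.333 to 0.573). Hoxc6, which was also on, had no promoter among them. Searched on both strands, TATAAA was in 0 of these 3 promoters and in 13.6% of all. TGATNNAT (a pattern bound by PBX and HOX proteins together) was in 0 and 8.85%, and TAATTA (the homeodomain core) in 0 and 5.29%. In that order the motifs were in 16.7%, 16.7% and 8.33% of the 24 Hox promoters, and in 15.8%, 21.1% and 10.5% of the 19 silent ones. With only 3 promoters, 0 matches cannot set the genes that were on apart. Matches of different motifs may overlap. The Hoxc4 window lies 15461 bases downstream of the start of its GENCODE gene model, and RNA counts do not show which start site was used.

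The Hoxa and Hoxb clusters were close to silent. In Hoxa (chromosome 6, 52155590 to 52260880) 8 of 11 genes had 0 counts in every library (Hoxa4, Hoxa5, Hoxa6, Hoxa7, Hoxa9, Hoxa10, Hoxa11 and Hoxa13). Hoxa3 (ENSMUSG00000079560), known for its part in thymus and parathyroid formation, was the exception, with 0.674, 1.12 and 0.363 CPM under shNT and 0.725, 0.738 and 0.912 CPM under the shIGF2BP1 label. The groups overlapped (log2 fold change 0.14 ± 0.56 SE, adjusted p = 0.975 by edgeR), and 27.1% of its exon bases are shared with other gene models. In Hoxb (chromosome 11, 96194316 to 96368256) 0 of 10 genes were on or at trace level. Hoxb6 held the most reads, with 3, 3 and 5 counts under shNT and 6, 9 and 6 counts under the shIGF2BP1 label, at 1.05% of windows shared with other genes.

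**Figure D2:**
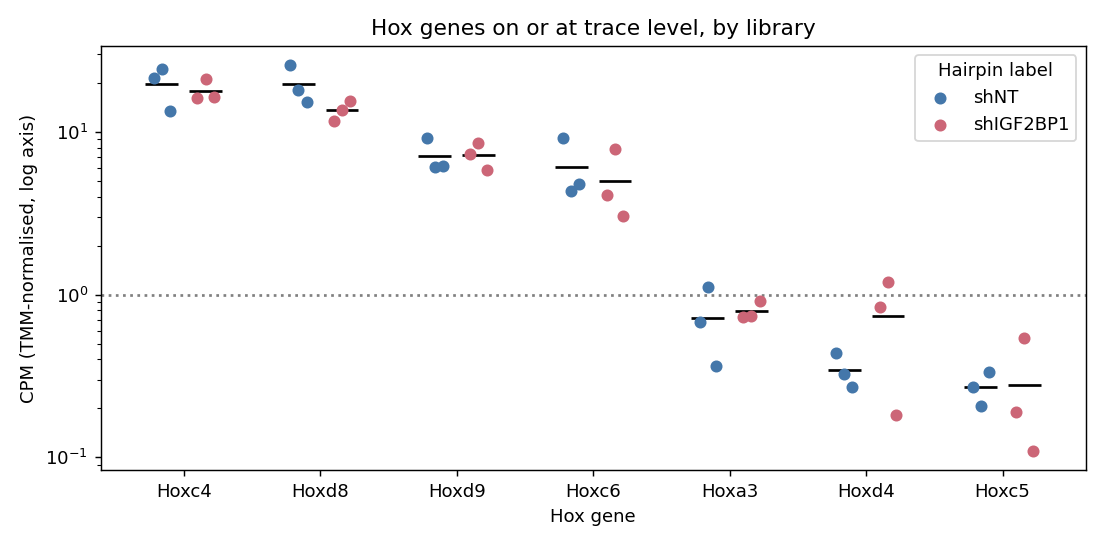
CPM (log axis) of the 7 Hox genes that were on or at trace level, with 1 point per library, the mean of each group as a line and the 1 CPM threshold dotted. Hoxc4, Hoxd8, Hoxd9 and Hoxc6 lay between 3.06 and 25.7 CPM in all 6 libraries, and the groups overlapped for every gene drawn.

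Set side by side per kilobase of merged exons, mean levels over the 6 libraries were 7.32 ± 1.61 for Hoxc4, 6.07 ± 1.81 for Hoxd8, 3.36 ± 0.65 for Hoxd9 and 2.31 ± 0.992 for Hoxc6 (CPM per kilobase, SD, n = 6). Hoxc4 and Hoxd8 did not hold a fixed order, with Hoxc4 ahead in 4 libraries and Hoxd8 in shNT replicates 1 and 3. Per kilobase of the longest coding transcript Hoxc4 was ahead in 6 of 6, by 1.04 to 1.93 times. Hoxd8 exceeded Hoxd9 in 6 of 6 libraries, by 1.24 to 2.35 times, and Hoxc6 was below Hoxd9 in 6 of 6, at 0.466 to 0.89 of its level. The order of Hoxc6 and Hoxd9 also depended on the length used, since per kilobase of the longest coding transcript Hoxc6 was above Hoxd9 in 3 of 6 libraries, at 0.709 to 1.36 of its level. Per kilobase of merged exons the ranges of Hoxc6 (1.27 to 3.81) and Hoxd9 (2.73 to 4.28) overlapped. A tier below, Hoxd4, Hoxa3 and Hoxc5 had 0.184 ± 0.133, 0.125 ± 0.0418 and 0.0889 ± 0.0485 CPM per kilobase of merged exons. On that scale they did not differ beyond their spread. Their order also depended on the length used. Without length, Hoxa3 had the highest mean of these at 0.754 CPM, against 0.541 for Hoxd4 and 0.274 for Hoxc5. The merged exons of Hoxa3 span 6014 bases and its longest coding transcript 2591. The Hoxc cluster gave 49.3% ± 3.72 and the Hoxd cluster 49% ± 3.96 of the summed Hox level per kilobase, against 0.938% for Hoxa and 0.779% for Hoxb. By paralog group, group 4 gave 38.2% ± 4.75, group 8 30.7% ± 5.13, group 9 17.3% ± 2.55 and group 6 11.9% ± 3.05 (SD, n = 6). Per kilobase of the longest coding transcript, group 6 gave 15.4% and group 9 14.8%, so their order is not settled.

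The code was the same in every library to within 1 gene. Exactly the 4 genes that were on reached 1 CPM in 4 libraries. In shNT replicate 2 Hoxa3 also did (1.12 CPM), and in shIGF2BP1 replicate 2 Hoxd4 did (1.19 CPM). The 4 genes supplied 96.1% to 97.3% of Hox counts under shNT and 93.6% to 95.5% in those labelled shIGF2BP1. These ranges did not overlap. Nor did the Hoxb share of level per kilobase, at 0.338% to 0.524% under shNT and 0.95% to 1.23% under the shIGF2BP1 label. That share rests on genes under 10 counts in every library. Groups were also free of overlap for 11.6% of all genes tested, but that rate is for the CPM of single genes and not for such shares. Across the 6 tested genes, the log2 CPM profiles (0.1 added) of any pair of libraries had a Pearson correlation of 0.917 to 0.998, which is over genes of very different level and carries no test.

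Of the 39 genes, 6 passed the filter on low counts (Hoxa3, Hoxc4, Hoxc6, Hoxd4, Hoxd8 and Hoxd9), and 0 of the 6 were called by edgeR at an adjusted p under 0.05, where 0.0223% of all 13445 genes tested were called. At an unadjusted p under 0.05 edgeR counted 0 of the 6, against 7.16% of all genes, and DESeq2 and limma-voom also called 0. The groups were free of overlap for 0 of the 6, against 11.6% of all genes, and against 5.59% for genes whose libraries labelled shIGF2BP1 were all the lower ones. The log2 fold changes were positive for 3 and negative for 3, with a median of -0.06, beside -0.01 over all genes tested. The 95% intervals leave room for changes in either direction: for Hoxc4 they run from -0.75 to 0.47, for Hoxd9 from -0.69 to 0.73 and for Hoxc6 from -1.26 to 0.70. Over the libraries the highest-to-lowest ratio was 1.81 for Hoxc4, 2.22 for Hoxd8, 1.57 for Hoxd9 and 2.99 for Hoxc6, beside a median of 1.9 over all genes tested.

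**Figure D3:**
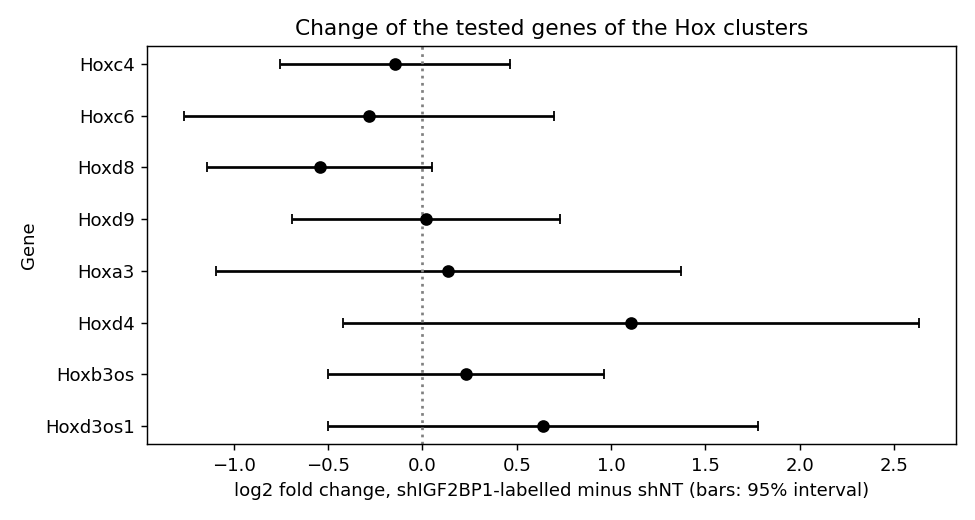
Points are log2 fold changes of the libraries labelled shIGF2BP1 against shNT (horizontal axis) from edgeR for the 6 Hox genes tested and 2 antisense genes of the clusters, with 95% intervals as bars. Each interval includes 0, and those of Hoxd4 (-0.42 to 2.63) and Hoxa3 (-1.09 to 1.37) are the widest.

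The silent genes were not entirely without reads, and these few reads were unevenly spread. The 32 silent genes together had 13, 18 and 8 counts with shNT (0.438, 0.528 and 0.242 CPM) and 20, 36 and 20 counts in those labelled shIGF2BP1 (0.763, 1.02 and 0.729 CPM). The groups did not overlap. That was so for 11.6% of all genes tested, but this rate is for single genes that passed the filter on low counts. The value here is a sum over 32 genes that did not pass it. No single silent gene was above 0.255 CPM in any library. Hoxb5 (1 and 11 counts), Hoxb6 (11 and 21), Hoxd3 (3 and 11) and Hoxb3 (7 and 13) held much of the difference. In that order their ratios of pooled normalised counts were 12 (95% interval 1.74 to 516), 2.08 (0.958 to 4.78), 3.99 (1.05 to 22.3) and 2.02 (0.75 to 5.99). Without shIGF2BP1 replicate 2 they were 7.22 (0.714 to 356), 1.97 (0.795 to 4.92), 1.8 (0.242 to 13.5) and 1.29 (0.323 to 4.72). All these intervals leave out the spread between libraries, and the genes were picked because they held the difference. Hoxd13 had 3 counts under shNT and 0 under the shIGF2BP1 label. Replicate 2 of the libraries labelled shIGF2BP1 stood highest for these reads, and it also had the most genes with any count (17959, against 16925 to 17411 elsewhere) and the largest share of counts on small RNA genes (0.0251%, against 0.0128% to 0.0197%). The part of these features in the result was not tested.

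**Figure D4:**
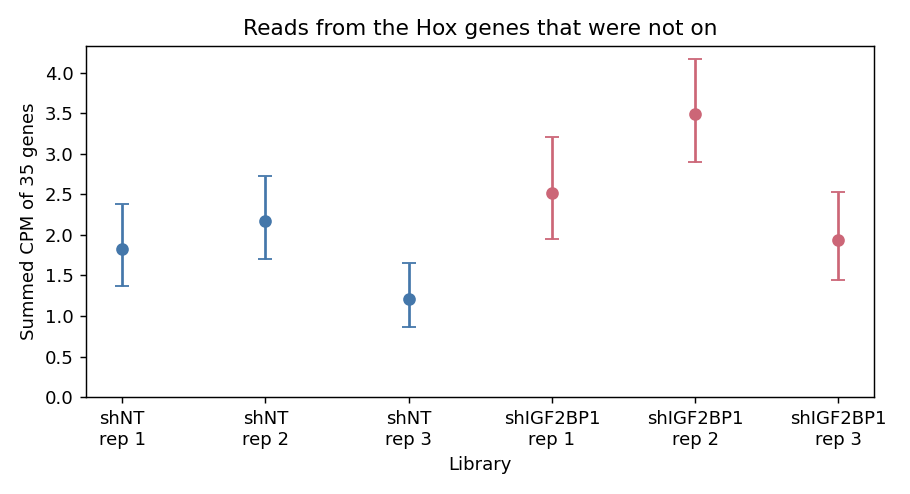
Summed CPM of the 35 Hox genes that were silent or at trace level, with 1 point per library and 95% counting intervals as bars. The level ran from 1.21 in shNT replicate 3 to 3.49 in shIGF2BP1 replicate 2, and the groups overlapped once Hoxa3, Hoxd4 and Hoxc5 were included.

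Genes annotated as antisense were read beside silent or nearly silent coding genes. Of 45 other annotated genes inside the 4 cluster spans, 31 had 0 counts in every library and 2 were at 1 CPM or more in all, Hoxb3os and the pseudogene Gm11539, both in Hoxb. Hoxb3os (ENSMUSG00000084844, minus strand, 96343072 to 96354691), a noncoding gene antisense to Hoxb2 and Hoxb3, had 6.03, 3.93 and 4.78 CPM under shNT and 6.29, 5.96 and 5.03 CPM under the shIGF2BP1 label. The groups overlapped (log2 fold change 0.23 ± 0.33 SE, adjusted p = 0.928 by edgeR). In the same libraries Hoxb3 had 8 counts at most and Hoxb2 had 1 at most, although 52.9% of the Hoxb3 exon bases are also Hoxb3os exons and cannot be assigned without strand. Hoxd3os1, antisense to Hoxd3 and Hoxd4 and spanning Hoxd8 without sharing an exon base with it, was close behind in the Hoxd cluster, at 4.04, 0.998 and 1.63 CPM under shNT and 3.74, 3.63 and 2.99 CPM under the shIGF2BP1 label. It was lowest in shNT replicates 2 and 3, the groups overlapped, and its log2 fold change of 0.64 ± 0.52 (adjusted p = 0.856 by edgeR) became 1.39 without shNT replicate 1. The regulatory noncoding genes Hotair and Hotairm1 had 5 counts or fewer in any library, and Hottip had 0. Gm11539 had 3.2 to 7.11 CPM, and as a processed pseudogene it is uncertain, since reads from a near-identical copy cannot be told apart.

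Genes just outside the clusters were active in part. Among the 3 nearest coding genes on each side, chosen after the values were seen, Evx1 next to Hoxa, Evx2 next to Hoxd, Skap2 and Skap1 had 1 count at most in any library, while Snx10, Hibadh, Cbx1, Smug1 and Mtx2 had 590 counts or more in each. Ttll6, a tubulin-modifying enzyme gene between Igf2bp1 and Hoxb13, had 29, 13 and 9 counts under shNT and 63, 177 and 33 counts under the shIGF2BP1 label. Its groups did not overlap, and its log2 fold change of 2.41 ± 0.67 (SE) had an edgeR adjusted p of 0.488, a DESeq2 adjusted p of 0.0432 and, with no filter on low counts, an edgeR adjusted p of 0.0161. By limma-voom the adjusted p of Ttll6 was 0.567.

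HOX proteins bind DNA together with TALE-class cofactors, and all 9 of these (of the Pbx, Meis and Pknox families) were at 1 CPM or more in every library. Their log2 fold changes were positive for 3 and negative for 6 with a median of -0.16, and 0 were called by edgeR. Meis1 had 104 ± 13.4 CPM under shNT and 108 ± 13.2 CPM under the shIGF2BP1 label, and Meis2 had 106 ± 28.6 and 89.4 ± 2.04 CPM (SD, n = 3 each). Pknox1, whose p was the lowest of these 9, had 59.9 ± 16.2 and 42.2 ± 1.11 CPM (adjusted p = 0.695 by edgeR), and Pbx3 had 27.8 ± 4.65 and 21.3 ± 0.991 CPM (adjusted p = 0.778 by edgeR).

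RNA of regulators that hold Hox clusters silent or active was read for every listed gene found among the gene IDs. Of the 15 trithorax genes and H3K27 demethylases listed, 14 were found. The 23 Polycomb genes were at 1 CPM or more in every library, with 13 positive and 10 negative log2 fold changes, a median of 0.02 and 0 called by edgeR. Mtf2, a subunit that recruits Polycomb complex 2, had 36.5 ± 2.84 CPM under shNT and 54.2 ± 12 CPM under the shIGF2BP1 label (SD over 3 libraries each, adjusted p = 0.66 by edgeR), and Cbx2, a reader of the Polycomb mark, had 77.8 ± 13.5 and 109 ± 8.99 CPM (adjusted p = 0.686 by edgeR). The 14 trithorax genes and H3K27 demethylases in the table were also at 1 CPM or more in every library, with 6 positive and 8 negative values, a median of -0.16 and 0 called by edgeR. Kdm6b, which removes the Polycomb mark, had 183 ± 62.5 and 84.4 ± 26 CPM (log2 fold change -1.12 ± 0.29 SE, adjusted p = 0.478 by edgeR). Among the alternatives it passed the threshold only with no filter on low counts (adjusted p = 0.00328 by edgeR, against 0.0602 by DESeq2). Men1, a partner of the MLL methyltransferases, had 85.3 ± 9.35 and 112 ± 4.18 CPM (adjusted p = 0.703 by edgeR).

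Signals that set the Hox code in the embryo were sparse. Of 14 posterior signals and Cdx factors 8 had 0 counts in every library, among them Cdx2, Cdx4 and Fgf8, while Gdf11, Nr6a1 and Lin28b were at 1 CPM or more in all. The 4 tested had positive log2 fold changes (median 0.26) and 0 were called by edgeR. Tbx6, a factor of presomitic mesoderm with the smallest p of these, had 0.542 ± 0.471 and 2.09 ± 2.91 CPM (adjusted p = 0.789 by edgeR), and its log2 fold change of 1.96 was -0.38 without shIGF2BP1 replicate 2. Retinoic acid is known to induce the forward genes of the clusters. Of 18 genes for its supply, breakdown and receptors 7 were at 1 CPM or more in every library, 10 were tested (4 positive, 6 negative, median -0.39), and edgeR called 1, lower in the libraries labelled shIGF2BP1. This was Stra6, the retinol uptake receptor, with 16.8 ± 2.27 CPM under shNT and 0.949 ± 0.294 CPM under the shIGF2BP1 label (SD, n = 3 each). Its log2 fold change was -4.13 with an SE of 0.36 (adjusted p = 0.00297 by edgeR). Of the other genes with small p, the retinaldehyde dehydrogenase Aldh1a1 had 0.135 ± 0.0765 and 0.892 ± 0.579 CPM (adjusted p = 0.496), and the retinol dehydrogenase Rdh10 had 30.1 ± 9.74 and 19.1 ± 3.3 CPM (adjusted p = 0.686, both by edgeR). Hoxb1 and Hoxa5, known retinoic acid targets, had 0 counts in every library.

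Position markers of the head were largely missing. Of 17 forebrain, midbrain and hindbrain factors 12 had 0 counts in every library, including Otx2, En1, En2, Gbx2 and Pax2, and 3 were tested with 0 called by edgeR. Otx1 and Egr2 were read at a low level in every library, at 0.968 to 2.55 CPM and 0.401 to 2.19 CPM. Emx2, the 1 member at 1 CPM or more in every library, is also a gene of the urogenital tract and had 124 ± 56.5 CPM under shNT and 61.6 ± 14 CPM under the shIGF2BP1 label (SD over 3 libraries each, adjusted p = 0.533 by edgeR, and 0.0133 with no filter on low counts). For Emx2 the adjusted p was 0.163 by DESeq2 and 0.641 by limma-voom. Of 13 limb and flank factors Hand2, Shox2 and Tbx4 were at 1 CPM or more in every library and 6 had 0 counts, including the forelimb factor Tbx5 and the hindlimb factor Pitx1. Tbx4, a hindlimb and lung factor, had 9.29 ± 2.16 and 8.56 ± 1.4 CPM (adjusted p = 0.959 by edgeR), and Shox2, a proximal limb factor, had 41.3 ± 8.16 and 37.5 ± 0.69 CPM (adjusted p = 0.934 by edgeR).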

How the data were processed

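Poly-A RNA libraries were made with a stranded kit and run as paired reads of 53 cycles, per the labels' protocols. Tools named in the submitters' processing notes are HISAT2 2.1.0, HTSeq and bcl2fastq, with the GRCm38 build. The sources used here do not give the annotation release, strand setting or filters. The deposited values are raw read counts per gene, 1 column per library, joined to samples by library name. Spike-in rows (92, with 0 counts) were left out. GENCODE M21 (GRCm38) gave symbols, exons and coordinates for 42462 of 43629 gene IDs. The 1167 others held 0.155% of counts.

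CPM used TMM factors, and levels between genes were divided by merged exon length. edgeR 4.0.16 in R 4.3.3 (quasi-likelihood F test, robust, two-sided, no covariates) was fitted to the 13445 genes kept by filterByExpr (minimum count 10, minimum total 15), with Benjamini-Hochberg adjustment over all of them and a threshold of 0.05. DESeq2 1.42.0 and limma 3.58.1 (voom) were alternatives, and all were tested on simulated data. Intervals for pooled ratios are exact conditional intervals at 95% and cover counting error only, not the spread between libraries. The naming rule took Hox genes on or at trace level, noncoding cluster genes that were on, and up to 4 members of each list with the smallest p, of which not all are described. Members and lists were chosen with earlier results of these data known. Common biological variation was 0.29 (coefficient). RefSeq promoters matched 22 Hox genes by symbol. Some genes and sequences are not reported here.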

Additional observations from a re-analysis of the deposited data

How the results depend on the processing

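The set of 4 Hox genes that were on was the same in 11 of 11 alternatives, several of which could only add genes. The alternative fits of all genes gave 76 results for single Hox genes, and 0 of these were called. Their smallest adjusted p was 0.524 (edgeR, Hoxd4 without shNT replicate 1). Most of these fits called few genes of any kind, as given below. The share of Hox level from Hoxc was 54.2% and from Hoxd 43.4% per kilobase of the longest coding transcript, and lay between 48.2% and 50% and between 48.1% and 50.1% without single libraries. Paralog group 6 gave 15.4% per kilobase of the longest coding transcript, and group 9 gave 14.4% of CPM without length. All genes called numbered 138 with no filter on low counts, 82 with DESeq2, 18 with the replicate block, 1 under limma-voom, 1 with genes kept from mean CPM 5 up, 1 at the stricter threshold of 0.01, and 1 to 5 without single libraries (5 without shNT replicate 3, and 1 without each of the others). Context-list members called were 7 with no filter and 3 with DESeq2. The log2 fold change of Igf2bp1 was -0.047 under the replicate block, -0.24 by limma-voom and between -1.24 and 0.76 without single libraries. Leaving out libraries moved the log2 fold change of Hoxa3 from -0.18 to 0.61, Hoxc4 from -0.36 to 0.031, Hoxc6 from -0.76 to 0.13, Hoxd9 from -0.11 to 0.24, Meis1 from -0.042 to 0.16, Tbx4 from -0.26 to 0.073, Shox2 from -0.24 to 0.033, Tbx6 from -0.38 to 2.46 and Gm11539 from -0.59 to 0.025, each crossing 0. Deviations of libraries with equal numbers correlated at 0.193, -0.094 and 0.275, and those with unequal numbers at -0.368 to 0.215. With 3 libraries per group these values cannot decide whether the numbers pair the samples. The replicate block left the Hox calls at 0. The ratio of Hoxd4 without shIGF2BP1 replicate 2, the sum without the trace genes and the ratios between Hox genes per longest coding transcript were chosen after seeing the data. Depth limits a silent gene to 0.0851 to 0.114 CPM in a library with 0 counts, provided that its reads can be assigned to it. That is uncertain for genes sharing many 53-base windows with other genes, such as Hoxd3, Hoxb3 and Hoxb2.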
